A study of Mus musculus with 4 samples.

Results

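The nuclear factor I genes Nfia, Nfib, Nfic and Nfix are described here by where AGO2, an Argonaute protein that carries microRNAs (miRNAs) to their target RNAs, was bound on their transcripts. A region was counted for a gene if its midpoint lay inside that gene on the same strand of mm10 in the GENCODE M21 annotation. By this rule the 4 genes held 168 of 86106 clusters in the IP labelled Fmr1 knockout, 99 of 46860 clusters in the wild-type IP, and 99 of 46862 regions in the authors' deposited table that sets both IPs against each other. The samples were whole brains of C57BL/6 mice on postnatal day 0, frozen and sent to a provider for eCLIP, which crosslinks a protein to its RNA, immunoprecipitates it and sequences the bound fragments. The antibody was EAG009 against AGO2. The groups were FMR1 ko brain, with an IP and an input library, and wild type brain, with the same pair. Fmr1 encodes FMRP, an RNA-binding protein. The allele of the knockout is not given in the labels, and reads on Fmr1 were found in both IPs, so the label could not be checked, and the library is called knockout-labelled throughout. Each genotype had 1 IP library, so no test across libraries was possible, and every comparison below compares those libraries and not the genotypes. In bulk tissue, fewer cells with a transcript and less transcript per cell cannot be told apart.

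Nuclear factor I proteins are transcription factors that bind DNA as dimers at a palindromic motif. In the developing brain Nfia, Nfib and Nfix are known for driving the exit of neural progenitors from self-renewal, the start of astrocyte formation and the forming of the corpus callosum and hippocampus, and Nfic is best known for its role in tooth root formation in mice. Their messenger RNAs have long 3' UTRs, the part of a transcript after the stop codon in which most known miRNA sites lie. A miRNA recognises such a site mainly through its seed, bases 2 to 8 from its 5' end.

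The sites with the clearest clusters were matches to 3 miRNA families, so their mature sequences are shown first, from RefSeq for GRCm38.p6, with the seed in capitals. miR-25 and miR-32 share the seed of miR-92a, miR-19a that of miR-19b, and miR-30c that of miR-30a.
mmu-miR-92a-3p: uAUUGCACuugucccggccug
mmu-miR-19b-3p: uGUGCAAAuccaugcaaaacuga
mmu-miR-30a-5p: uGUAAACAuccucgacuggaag
The matching windows of 26 bases in the 3' UTRs are given 5' to 3' on the transcript strand in mm10, with the 7 bases that pair with the seed in capitals. They are the 4 sites inside a knockout-labelled cluster that passed the limits for enrichment and had a wild-type cluster over all or part of the site.
Nfix, miR-92a site, chr8:84706855-84706880, minus strand: gcggtcaaaGTGCAATgatttttcag
Nfib, miR-19 site, chr4:82295299-82295324, minus strand: taatcctaaTTTGCACgaagatataa
Nfic, miR-19 site, chr10:81399093-81399118, minus strand: atttccaaaTTTGCACgaacttttta
Nfib, miR-30 site, chr4:82296316-82296341, minus strand: tattcttgtTGTTTACgcatggagtc
The longest stretch shared by the miR-19 windows of Nfib and Nfic was 12 bases.

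Read totals of the libraries are not in the files, but ratios of depth follow from the authors' scores. Input over IP depth was 1.92 in the knockout-labelled pair and 6.34 in the wild-type pair, and depth of the knockout-labelled over the wild-type IP was 2.28. A cluster was called enriched where both deposited scores, the -log10 p and the log2 of IP over input, reached 3. With 1 input read, 9 IP reads were needed to pass in the knockout-labelled library and 5 in the wild-type library, so counts of enriched clusters in the libraries are not on the same footing. Equal numbers of IP and input reads gave a log2 of 0.94 in the knockout-labelled pair and 2.66 in the wild-type pair. An input count of 0 had been entered as 1, so a listed input of 1 read may be an entered value. Summed input reads, summed log2 values and their intervals count such entries as reads. Intervals below are exact 95% binomial intervals that cover counting error only. The tissue label was met: all 5 neuron markers had exonic clusters in both IPs, while the liver markers Alb, Apoa1 and Afp had none in the knockout-labelled IP and 1 cluster of 6 reads, on Alb, in the wild-type IP.

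AGO2 clusters that passed the limits lay mainly in 3' UTRs, and Nfix carried most of the reads. In the knockout-labelled library 12 of 168 clusters of the 4 genes were enriched (7.14%), beside 3.08% of all clusters. In the wild-type library 39 of 99 were enriched (39.4%), beside 24.1% of all clusters. In the 3' UTRs 10 of 38 knockout-labelled clusters (26.3%) and 21 of 37 wild-type clusters (56.8%) passed, beside 8.98% and 37.1% of all 3' UTR clusters. By gene, the knockout-labelled counts of enriched clusters of any kind were 7 in Nfix, 3 in Nfib, 2 in Nfic and 0 in Nfia. The wild-type counts were 15 in Nfix, 16 in Nfib, 4 in Nfic and 4 in Nfia. The median log2 over input of the 3' UTR clusters was 2.80 in the knockout-labelled library, beside 2.52 over all 3' UTR clusters, and 4.66 in the wild-type library, beside 4.25.

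**Figure D1:**
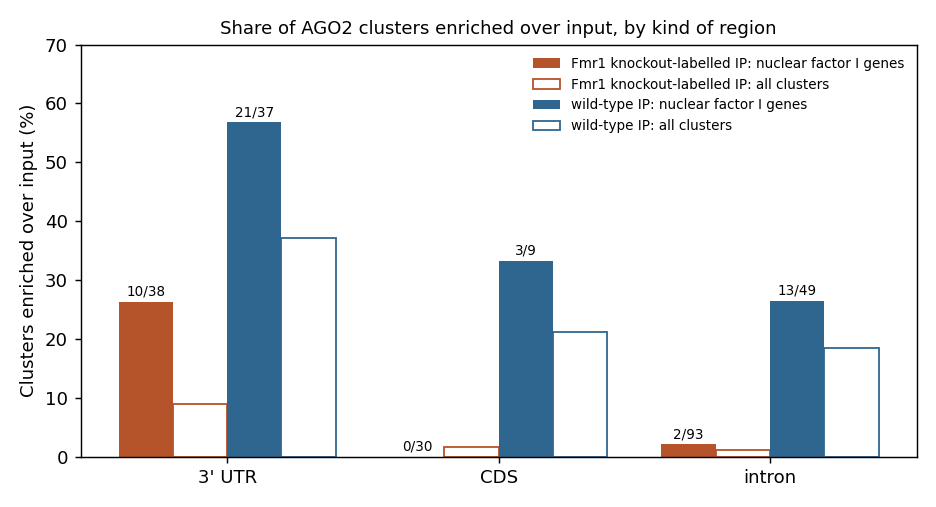
Share of clusters enriched over input (percent) by kind of region, for the nuclear factor I genes (filled bars, with enriched over all clusters above them) and for all clusters of the library (open bars), knockout-labelled IP left of wild-type IP. In 3' UTRs the filled bars stand at 26.3% and 56.8%, above the open bars at 8.98% and 37.1%. The limits need more reads in the knockout-labelled library, so bars of different libraries are not on the same footing.

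Ordered by IP reads per kb of 3' UTR, the genes stood in the same order in both libraries. Nfix had 125 IP reads per kb of 3' UTR (interval 115 to 137) in the knockout-labelled library and 66.8 (59.0 to 75.3) in the wild-type library. That placed Nfix 17th of 4479 and 29th of 3667 genes with 3' UTR clusters. Nfib followed with 15.1 reads per kb (12.3 to 18.4) in the knockout-labelled library and 13.0 (10.4 to 16) in the wild-type library. Nfic had 13.5 (10.5 to 17.2) and 9.03 (6.56 to 12.1), so the intervals of these neighbours overlapped in both libraries. Nfia came last, with 3.01 reads per kb (1.91 to 4.52) in the knockout-labelled library and 3.93 (2.65 to 5.60) in the wild-type library. The intervals are exact Poisson intervals of the reads, the reads are not scaled to transcript level, and no value has a replicate. Over all kinds of region, 19 knockout-labelled and 20 wild-type pairs of clusters abut with equal scores. Each cluster of such a pair is summed here and below, so some reads may be counted more than once.

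Nfix, which promotes the differentiation of neural progenitors in the hippocampus and cerebellum, held its reads in 3 stretches of its 3' UTR. The gene is ENSMUSG00000001911.16 on the minus strand of chromosome 8, from 84699876 to 84800344. Its 3' UTR block runs over 3954 bases, and only 1 of its 5 annotated coding transcripts holds the strongest cluster in its 3' UTR. In all, the Nfix 3' UTR had 496 IP and 66 input reads in 9 knockout-labelled clusters, and 264 IP and 56 input reads in 10 wild-type clusters. The summed log2 over input was 3.85 (3.48 to 4.24) in the knockout-labelled library and 4.90 (4.48 to 5.34) in the wild-type library. 5 of the 9 and 8 of the 10 clusters were enriched.

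The strongest cluster of the family lay in the distal part of the Nfix 3' UTR, centred 3207 bases from the start of the block in the knockout-labelled library and 3204 in the wild-type library. The knockout-labelled cluster at chr8:84705401-84705517 had 187 IP reads and 3 input reads, a log2 over input of 6.90 (5.33 to 9.19). The wild-type cluster at chr8:84705405-84705519 had 96 IP reads and 12 input reads, a log2 of 5.66 (4.79 to 6.67). Both passed the limits. The wild-type cluster is listed at a -log10 p of 400, which is the ceiling of the deposited scores and is not read as a measure of strength. The next cluster upstream in the transcript abutted it: chr8:84705518-84705599 had 82 IP and 25 input reads in the knockout-labelled library, a log2 of 2.65 that missed the limit. Its wild-type counterpart, chr8:84705520-84705584, had 36 IP and 20 input reads and a log2 of 3.51, and passed. This stretch held 54.2% (49.7 to 58.7) of the IP reads in Nfix 3' UTR clusters of the knockout-labelled library and 50% (43.8 to 56.2) of those of the wild-type library. Abutting clusters may share reads.

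The middle stretch, around the miR-92a site printed above, held a further pair of abutting clusters in each library. The cluster with the site, chr8:84706864-84706933, had 79 IP and 12 input reads in the knockout-labelled library, a log2 of 3.66 (2.77 to 4.67). In the wild-type library chr8:84706852-84706928 had 31 IP and 5 input reads, a log2 of 5.30 (3.92 to 7.02). Its neighbour upstream in the transcript, chr8:84706934-84707009, had 75 IP and 8 input reads in the knockout-labelled library, a log2 of 4.17. The wild-type neighbour, chr8:84706929-84707015, had 38 IP and 7 input reads, a log2 of 5.10. All 4 clusters passed the limits. The pair held 31.0% (27.0 to 35.3) of the Nfix 3' UTR reads in the knockout-labelled library and 26.1% (20.9 to 31.9) in the wild-type library.

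The third stretch of Nfix had fewer reads and still passed in both libraries. The knockout-labelled cluster chr8:84707222-84707275 had 37 IP and 2 input reads, a log2 of 5.15, and the wild-type cluster chr8:84707227-84707305 had 26 IP and 2 input reads, a log2 of 6.36. Of the remaining Nfix 3' UTR clusters, 1 knockout-labelled cluster passed, chr8:84707764-84707795, with 9 IP reads and 1 input read. In the wild-type library 3 more passed. The one with the most reads, chr8:84707351-84707395, had 13 IP and 3 input reads and a log2 of 4.78.

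**Figure D2:**
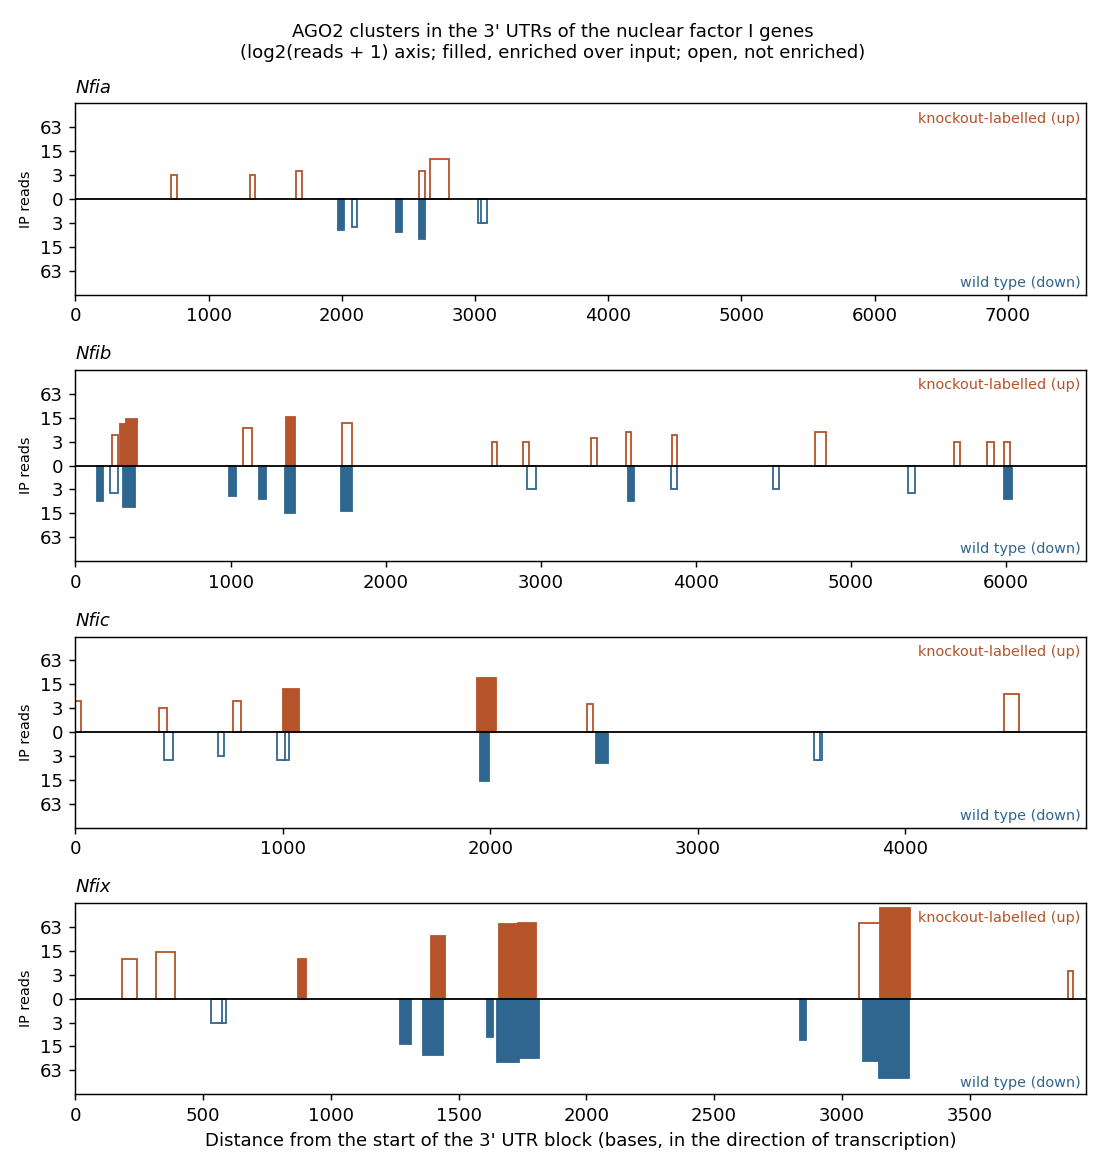
AGO2 clusters along the 3' UTR block of each gene, with the distance from the start of the block in bases on the x axis and IP reads on a log2(reads + 1) axis, knockout-labelled clusters pointing up and wild-type clusters pointing down. Filled bars passed the limits over input and open bars did not. Nfix reaches 187 and 96 reads, while no cluster of Nfia exceeds 9 reads in either library. The 2 knockout-labelled Nfic clusters outside the block are not drawn.

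Nfib, needed for lung maturation and the corpus callosum, had the most clusters of the 4 genes and small read counts at each. It is ENSMUSG00000008575.17 on the minus strand of chromosome 4, from 82290173 to 82705750, with a 3' UTR block of 6512 bases. Its 3' UTR held 15 knockout-labelled clusters with 100 IP and 30 input reads, a summed log2 of 2.68 (2.08 to 3.32), and 13 wild-type clusters with 86 IP and 23 input reads, a summed log2 of 4.57 (3.89 to 5.30). 3 of the 15 and 8 of the 13 were enriched, and all 3 of the knockout-labelled ones overlapped a wild-type cluster. The cluster at the miR-19 site, chr4:82295268-82295327, had 16 IP and 3 input reads in the knockout-labelled library, a log2 of 3.35 (1.55 to 5.78). In the wild-type library chr4:82295272-82295331 had 15 IP and 2 input reads, a log2 of 5.57 (3.47 to 8.74). It was the Nfib 3' UTR cluster with the highest -log10 p in the wild-type library, at 10.97.

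In the knockout-labelled library the Nfib cluster with the highest -log10 p, 5.50, was the one at the miR-30 site. It lay at chr4:82296291-82296359, with 14 IP reads and 1 input read and a log2 of 4.75 (2.03 to 10.15). The abutting chr4:82296360-82296396 had 10 IP reads and 1 input read. A single wild-type cluster, chr4:82296303-82296379, covered parts of both, with 10 IP reads and 1 input read and a log2 of 5.99 (3.17 to 11.43). A further Nfib cluster, which held overlapping miR-153 and miR-92a sites, passed in the wild-type library alone: chr4:82294902-82294970 had 13 IP and 2 input reads and a log2 of 5.36. At almost the same place the knockout-labelled library had 11 IP and 4 input reads, a log2 of 2.40 that missed the limit. With counts this small the intervals of the libraries overlap at each of these sites.

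Nfic had few clusters, and the leading knockout-labelled one held a miR-19 and a miR-200b site. It is ENSMUSG00000055053.18 on the minus strand of chromosome 10, from 81396186 to 81455635, with a 3' UTR block of 4871 bases. Its 3' UTR held 9 knockout-labelled clusters with 66 IP and 12 input reads, a summed log2 of 3.40 (2.50 to 4.42), and 8 wild-type clusters with 44 IP and 12 input reads, a summed log2 of 4.54 (3.59 to 5.59). The leading knockout-labelled cluster, chr10:81399031-81399120, had 22 IP and 2 input reads and a log2 of 4.40 (2.37 to 7.53). The leading wild-type cluster, chr10:81399064-81399106, had 16 IP reads and 1 input read and a log2 of 6.66 (3.98 to 12.05). The wild-type cluster ended inside the miR-19 site and held 4 of its 7 bases, so it is not counted as holding it. That cluster held no part of the miR-200b site, which lay at chr10:81399055-81399061. The other enriched knockout-labelled cluster, chr10:81399981-81400056, had 11 IP reads and 1 input read. The wild-type clusters over it had 4 IP reads and 1 input read and did not pass.

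Nfia, needed to start astrocyte formation, had the lowest counts of 3' UTR clusters and reads despite the longest 3' UTR block of the 4, 7583 bases. It is ENSMUSG00000028565.18 on the plus strand of chromosome 4, from 97772734 to 98118874. Its 3' UTR held 5 knockout-labelled clusters with 23 IP and 8 input reads, none enriched, and 6 wild-type clusters with 30 IP and 6 input reads, 3 of them enriched. The summed log2 was 2.46 (1.25 to 3.83) in the knockout-labelled library and 4.99 (3.70 to 6.54) in the wild-type library. All 6 wild-type clusters were listed with 1 input read, which may be an entered value, so the wild-type sum and its interval are uncertain beyond counting error. The knockout-labelled 3' UTR cluster with the highest -log10 p, chr4:98113955-98114094, had 9 IP and 2 input reads, a log2 of 3.11 and a -log10 p of 2.76, just short of the limit. It held a miR-30 site, shown because it is the third site of that family in these clusters and lies at chr4:98114049-98114074, plus strand.
Nfia, miR-30 site: tctgaaaatTGTTTACtggttatctc
The leading wild-type cluster, chr4:98113877-98113912, had 9 IP reads and 1 input read and a log2 of 5.83 (2.98 to 11.29). At the same place the knockout-labelled library had 4 IP reads and 1 input read, a log2 of 2.94. All 5 knockout-labelled and all 6 wild-type clusters of Nfia were centred between 738 and 3066 bases from the start of the 3' UTR block.

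Outside the 3' UTRs no cluster of the 4 genes with recovered reads had 20 or more IP reads in either library. Coding sequence held 149 and introns 292 recovered IP reads in the knockout-labelled library, beside 685 in 3' UTRs. In the wild-type library they held 57 and 192, beside 424. Knockout-labelled reads were recovered for 23 of 30 coding, 81 of 93 intron and all 38 3' UTR clusters, so the coding and intron sums are partial. Wild-type reads were recovered for all coding and 3' UTR clusters and for 47 of 49 intron clusters. Coding sequence held 30 knockout-labelled clusters, 0 of them enriched, beside 1.65% of all coding clusters. In the wild-type library 3 of 9 passed, beside 21.2%. Those were Nfib chr4:82330401-82330431, with 12 IP and 7 input reads and a log2 of 3.44, and Nfix chr8:84723755-84723868 and chr8:84716167-84716205, with 9 and 5 IP reads. In 5' UTRs 0 of 6 knockout-labelled clusters passed, beside 4.45% of all, and 2 of 2 wild-type clusters passed, beside 30.8%. Both of these were on Nfix. The one with the higher -log10 p, chr8:84800018-84800135, had 13 IP and 6 input reads and a log2 of 3.78. The knockout-labelled cluster at that place, chr8:84800039-84800128, had 10 IP and 5 input reads and a log2 of 1.94.

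Introns held most clusters of the 4 genes in the knockout-labelled library, 93 of 168 (55.4%), and 49 of 99 in the wild-type library (49.5%), beside 42.8% and 44.1% of all clusters. Only 2 of the 93 were enriched, beside 1.09% of all intron clusters, and both were on Nfix: chr8:84728776-84728852 with 15 IP reads and 1 input read, and chr8:84712795-84712865 with 10 and 1. Neither overlapped a wild-type cluster. In the wild-type library 13 of 49 passed, beside 18.4%. Among those, 5 pairs abut with equal scores, and no enriched cluster of another kind of region was in such a pair. Counting each such pair once left 34 enriched wild-type clusters of any kind in place of 39, with the whole drop in introns. The knockout-labelled count stayed at 12. The share of clusters in 3' UTRs was 22.6% (16.5 to 29.7) in the knockout-labelled library and 37.4% (27.9 to 47.7) in the wild-type library, beside 12.4% and 18.3% of all clusters.

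About as many 3' UTR clusters of the 4 genes had a counterpart in the other library as had none. Of the 38 knockout-labelled 3' UTR clusters 18 overlapped a wild-type cluster (47.4%, 31.0 to 64.2), beside 24.8% of all 3' UTR clusters. Of the 37 wild-type clusters 18 overlapped a knockout-labelled one (48.6%, 31.9 to 65.6), beside 32.7%. In introns the shares were 8.60% (3.79 to 16.2) of 93 knockout-labelled and 18.4% (8.76 to 32) of 49 wild-type clusters, beside 6.26% and 11.7% of all intron clusters. Of the 10 enriched knockout-labelled 3' UTR clusters 9 had a wild-type cluster over them, beside 78.9% of all enriched 3' UTR clusters, the exception being Nfix chr8:84707764-84707795. Of the 21 enriched wild-type 3' UTR clusters 12 had a knockout-labelled one, beside 50.8%. By gene, the knockout-labelled 3' UTR share was 60.0% in Nfib (9 of 15), 55.6% in Nfix (5 of 9), 33.3% in Nfic (3 of 9) and 20% in Nfia (1 of 5).

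At the 18 knockout-labelled 3' UTR clusters with a wild-type counterpart, the wild-type minus knockout-labelled log2 over input had a median of 1.50 and ran from -1.24 to 2.97. A library pair with the same ratio of IP to input reads would give 1.72, and 1.72 was also the median over all 2649 such 3' UTR clusters. The difference was above 0 at 17 of the 18 sites, and at 2464 of the 2649 over all genes. Every Nfix site lay below 1.72, at -1.24, 0.86, 0.94, 1.22 and 1.64. Nfib and Nfic had sites on both sides of 1.72, and the Nfia site stood at 2.89. These differences between genes were not tested. The member site below 0 was the strongest Nfix cluster, with 6.90 in the knockout-labelled library and 5.66 in the wild-type library. That site had 3 input reads in the knockout-labelled pair and 12 in the wild-type pair, and the intervals of the log2 values, 5.33 to 9.19 and 4.79 to 6.67, overlap. At 8 of the 18 sites both libraries passed the limits, 4 of them on Nfix, 3 on Nfib and 1 on Nfic.

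**Figure D3:**
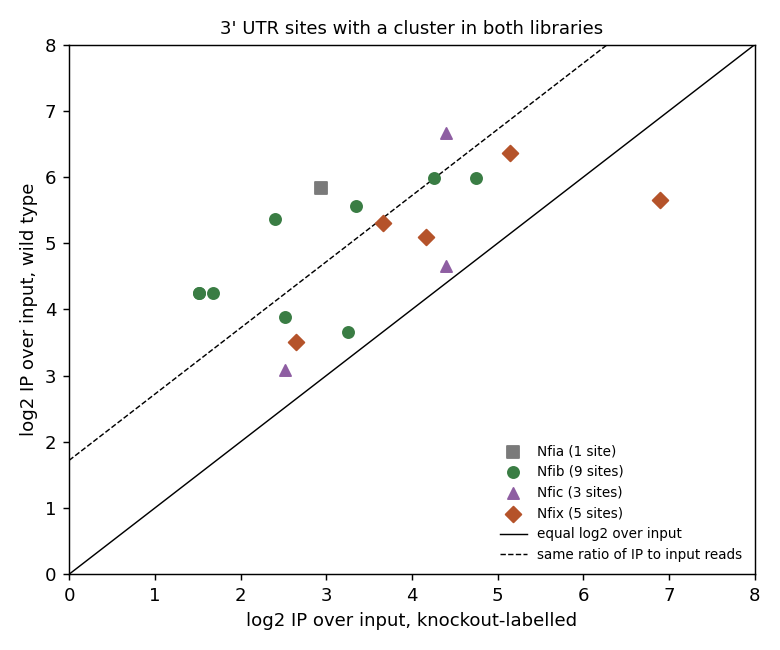
log2 of IP over input at the 18 knockout-labelled 3' UTR clusters that overlap a wild-type cluster, knockout-labelled on the x axis and wild type on the y axis, one marker per site. The solid line marks equal values and the dashed line, 1.72 higher, the same ratio of IP to input reads. The single point below the solid line is the Nfix cluster with 187 and 96 IP reads, and a pair of Nfib sites has the same values and shares a marker.

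Set directly against each other, the IPs differed little on the Nfix 3' UTR. The log2 of the authors' deposited table is that of wild-type over knockout-labelled IP, scaled to depth, so a positive value means more reads in the wild-type IP for its depth. Regions of that table were those called in the wild-type IP, which leaves out places with clusters in the knockout-labelled library alone. At the strongest Nfix site the authors' deposited table gave 197 knockout-labelled and 96 wild-type reads, a log2 of 0.15 (-0.22 to 0.51). At the miR-92a site of Nfix it was 79 and 31 reads in the authors' deposited table, a log2 of -0.16 (-0.81 to 0.45). Over the 10 Nfix 3' UTR regions of the authors' deposited table, 519 knockout-labelled and 264 wild-type reads gave a summed log2 of 0.21 (-0.01 to 0.43).

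For the other members the same sums rest on few reads in regions that entered only through a wild-type cluster, so they are given as values and not set against Nfix. In the authors' deposited table the summed log2 of wild-type over knockout-labelled reads in 3' UTRs was 1.06 (0.62 to 1.50) for Nfib, from 94 and 86 reads with the knockout-labelled count first. It was 1.12 (0.49 to 1.75) for Nfic in the authors' deposited table, from 46 and 44 reads. For Nfia it was 2.29 (1.33 to 3.32) in the authors' deposited table, from 14 and 30 reads. In the clusters called in each library itself, the 3' UTR reads were 100 and 86 in Nfib, 66 and 44 in Nfic and 23 and 30 in Nfia, with the knockout-labelled count first, at the IP depth ratio of 2.28. Read number moved with these values: regions of the authors' deposited table with 20 or more reads had a median log2 of 0.39 over all genes outside miRNA genes and 0.51 over the 14 such member regions, while over all regions the medians were 2.77 and 2.19. In 3' UTRs the order was the other way. There the regions with 20 or more reads had a median of 0.77 over all 924 and 0.49 over the 11 member regions in the authors' deposited table. The part of read number in these values was not tested. A region with 3 wild-type reads and at most 1 knockout-labelled read is listed at 2.77 in the authors' deposited table.

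**Figure D4:**
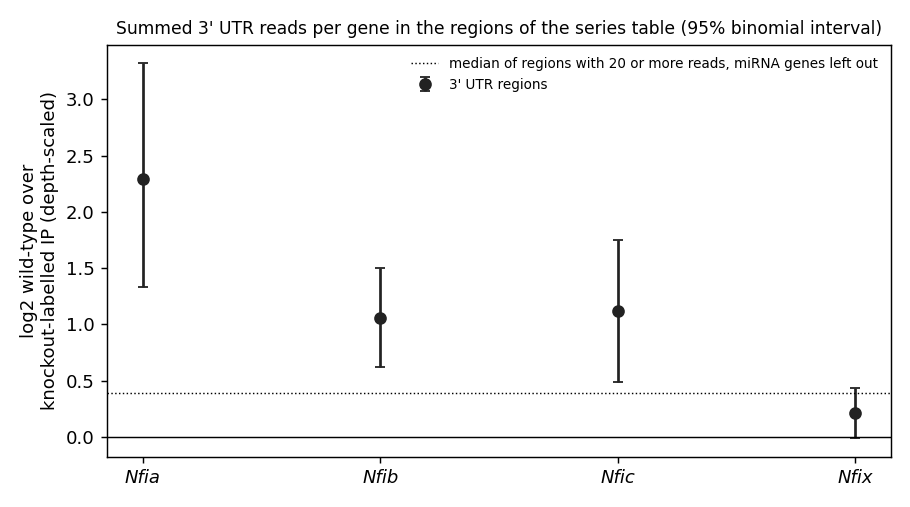
Summed 3' UTR reads per gene in the regions of the authors' deposited table as log2 of wild-type over knockout-labelled IP, scaled to depth, with exact 95% binomial intervals. The dotted line at 0.39 is the median over regions of any kind, outside miRNA genes, that hold at least 20 reads. Over 3' UTR regions with at least 20 reads the median was 0.77, which is not drawn. Nfix stands at 0.21, from 519 and 264 reads, and the other values lie between 1.06 and 2.29 and rest on fewer reads, in regions called in the wild-type IP.

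With a -log10 p limit of 3 and a log2 limit of 1, the wild-type IP was higher at 2 of 99 member regions of the authors' deposited table (2.02%), beside 3.39% of all regions. In 3' UTRs it was higher at 1 of 37 member regions of the authors' deposited table, beside 3.82%. The first was the Nfib coding region chr4:82330401-82330431, with 2 knockout-labelled and 12 wild-type reads, a log2 of 3.77 (1.61 to 6.97) and a -log10 p of 4.52 in the authors' deposited table. The second was the Nfix 3' UTR region chr8:84707351-84707395, with 6 and 13 reads, a log2 of 2.30 (0.81 to 3.99) and a -log10 p of 3.08 in the authors' deposited table. Both rest on fewer than 20 reads, while 18.3% of all regions with 20 or more reads were higher in the wild-type IP in the authors' deposited table. Of the 14 member regions with 20 or more reads in the authors' deposited table, none passed. In the other direction 0 regions passed with a p computed in both directions from the recovered reads. Of the 99 regions 5 had a log2 below 0, the lowest being -0.55 in the authors' deposited table.

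Of the 31 miRNA families searched, sites of 29 occurred in the 3' UTR blocks of the 4 genes. The sites searched were 7 or 8 bases long, pairing with bases 2 to 8 of the miRNA or with bases 2 to 7 followed by an A. In all, 149 sites were found, 57 in Nfia, 43 in Nfib, 33 in Nfic and 16 in Nfix, and 18 of them lay wholly inside a cluster of either library (12.1%), while clusters of either library covered 11.8% of the bases. Of these 18 sites 5 lay in clusters of both libraries, 7 in knockout-labelled clusters alone and 6 in wild-type clusters alone. miR-30 had 3 of its 4 sites in clusters, and miR-19 had 2 of 6, miR-92a 2 of 8, miR-153 2 of 10 and miR-9 2 of 5. The single let-7 site, in Nfia, was in none. A match describes the letters only, and whether the miRNA was loaded at the site was not measured.

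The share of 3' UTR clusters that hold such a site was 9 of 38 in the knockout-labelled library (23.7%, 11.4 to 40.2), beside 28.8% of all 3' UTR clusters, and 6 of 37 in the wild-type library (16.2%, 6.19 to 32), beside 27.9%. Among enriched clusters it was 4 of 10 (40.0%, 12.2 to 73.8), beside 53.2%, and 5 of 21 (23.8%, 8.22 to 47.2), beside 39.3%. The intervals of the enriched clusters include the share over all genes in both libraries. On Nfix, 1 of its 5 enriched knockout-labelled clusters and 1 of its 8 enriched wild-type clusters held a site, in both cases the miR-92a one. The strongest Nfix cluster held none of the sites searched in either library, also when extended by 20 bases on both sides. Sites of miR-124 were not searched.

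A further site lay in a cluster of the wild-type library alone, in Nfia at chr4:98113710-98113735, plus strand, and is shown as the only miR-9 site in an enriched cluster.
mmu-miR-9-5p: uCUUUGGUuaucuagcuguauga
Nfia, miR-9 site: ttttgtttgACCAAAGtcagtgctgc
The wild-type cluster over it, chr4:98113705-98113736, had 6 IP reads and 1 input read and a log2 of 5.25 (2.21 to 10.77). No knockout-labelled cluster covered it, and the authors' deposited table gave 2 knockout-labelled and 6 wild-type reads there, a log2 of 2.77 (0.29 to 6.11).

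Base composition separated Nfix from Nfib and Nfia. The GC content of enriched 3' UTR clusters of Nfix ran from 57.4% to 77.1% in the knockout-labelled library and from 63.3% to 93.8% in the wild-type library. In Nfib it ran from 29.7% to 39.1% and from 35.1% to 58.1%, and the 3 wild-type clusters of Nfia lay between 34.4% and 41.7%. In Nfic it ran from 37.8% to 63.2% in the knockout-labelled library and from 51.2% to 67.8% in the wild-type library. The median GC content of 3' UTR clusters over all genes was 50% in the knockout-labelled library and 49.1% in the wild-type library, beside 50.6% and 58.1% in the 4 genes.

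The study's title concerns miRNA sites in G-quadruplexes, structures that guanine-rich RNA can form, and 1 such motif lay beside the Nfix miR-92a site. The motif searched was 4 runs of 3 or more G, read on the transcript's own strand, with loops no longer than 7 bases. It lay at chr8:84706903-84706927, inside the middle stretch of Nfix clusters in both libraries, with 31 bases between it and the 7 bases of the site, upstream of the site in the transcript. A second motif, chr8:84706736-84706763, lay 100 bases from the nearest knockout-labelled cluster and 88 bases from the nearest wild-type cluster. Nfic had 3 motifs in its 3' UTR block, none in a cluster, and Nfia and Nfib had none. At the motif beside the miR-92a site the reads of the libraries were those given above, with 79 knockout-labelled and 31 wild-type reads and a log2 of -0.16 (-0.81 to 0.45) in the authors' deposited table.

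Over all exonic clusters of the 4 genes, a motif lay within 50 bases of 6 of 75 knockout-labelled clusters (8%, 2.99 to 16.6), beside 2.34% of all exonic clusters, and of 3 of 50 wild-type clusters (6.00%, 1.25 to 16.5), beside 2.40%. Of the 6 knockout-labelled clusters 4 were on Nfix and 2 on Nfic, and the enriched ones were the 2 of the Nfix middle stretch. All 3 wild-type clusters were on Nfix and enriched, 2 in the middle stretch and 1 in the 5' UTR. Whether the motifs fold was not measured.

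Genes of like pattern were sought among 2717 protein-coding genes with 3' UTR clusters in both libraries, by distance over 4 values, the log2 of 1 plus IP reads per kb and the median log2 over input in each of the 2 libraries. Nearest to Nfix was Dynll2, which encodes a dynein light chain, at a distance of 0.55, beside a median of 6.05 over all genes, followed by Lmbr1l at 0.81 and Syt5 at 0.95. Dynll2 had 141 IP reads per kb of 3' UTR in the knockout-labelled library and 81.1 in the wild-type library. Nfib and Nfic had nearer neighbours: Ski, Ddx17 and Klf7 for Nfib (0.20 to 0.32), and Qk, Calcoco1 and Irgq for Nfic (0.21 to 0.30).

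Among 20 genes tied to nuclear factor I in progenitors and astrocytes, 17 had an exonic cluster in the knockout-labelled library and 13 in the wild-type library. In the knockout-labelled library 3 of their 89 exonic clusters were enriched (3.37%), beside 4.56% of all exonic clusters, and in the wild-type library 11 of 45 (24.4%), beside 28.6%. In the 4 nuclear factor I genes the shares were 10 of 75 exonic clusters (13.3%) and 26 of 50 (52.0%). The most enriched clusters were on Zbtb20, a transcription factor of hippocampal neurons and astrocytes, with 1 in the knockout-labelled and 3 in the wild-type library, and on Sox9, which acts with Nfia in starting glia formation, with 1 and 2. Apcdd1, with 0 and 2, and Zcchc24, with 1 and 1, followed. Of the 71 regions of these genes in the authors' deposited table, 1 was higher in the wild-type IP (1.41%), beside 3.39% of all regions.

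Lists of other transcription factor genes of the newborn brain were counted by 3' UTR clusters. Over all genes 8.98% of knockout-labelled and 37.1% of wild-type 3' UTR clusters were enriched. In 12 neural Sox genes 3 of 22 knockout-labelled 3' UTR clusters (13.6%) and 12 of 21 wild-type ones (57.1%) were enriched. In 21 cortical transcription factor genes the counts were 8 of 47 (17.0%) and 21 of 36 (58.3%). By this count the nuclear factor I genes, at 26.3% and 56.8%, were highest of these 3 lists in the knockout-labelled library and lowest in the wild-type library. In the 20 genes tied to nuclear factor I the 3' UTR shares were 7.14% and 37.5%. The order depended on the clusters counted. By exonic clusters the nuclear factor I genes were highest of the 3 lists in both libraries, at 13.3% and 52.0%. The exonic shares were 9.84% and 48.8% in the Sox genes and 4.66% and 39.7% in the cortical genes. The nuclear factor I shares rest in large part on Nfix. It held 5 of the 10 enriched knockout-labelled 3' UTR clusters and 8 of the 21 wild-type ones. Of the enriched exonic clusters it held 5 of 10 and 12 of 26. Exonic shares by gene were 5 of 28 and 12 of 17 in Nfix and 3 of 30 and 9 of 19 in Nfib. They were 2 of 10 and 2 of 8 in Nfic and 0 of 7 and 3 of 6 in Nfia. The order of the lists without Nfix was not computed. No test of differences between lists or genes was made.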

How the data were processed

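Per the labels' protocols and the submitters' processing notes, the processing used cutadapt 1.15 for adapters, STAR 2.6.0c for filtering repeats and for mapping to mm10, UMI tools (version given as 5.2) for duplicates and CLIPper 1.4 for calling clusters in each IP. Per the labels, each cluster was then scored against its input. The deposited files give the authors' -log10 p (at most 400) and log2 per cluster. How the series table was made is not given in the sources used here. Wild type was taken as its numerator, since 46799 of its regions match a wild-type cluster base for base.

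Reads were recovered from the deposited log2 and -log10 p as the whole-number pair that meets both within 1%. Wild-type reads from the 2 tables were equal in 99.87% of 42530 regions and in all 95 member regions with both. Clusters listed at a -log10 p of 0 or 400 gave no reads unless the other table did, which leaves 19 knockout-labelled and 2 wild-type member clusters without reads. The recovery was also run on 2000 simulated regions per table, where 100.00% of the recovered pairs were right. Those regions were scored with the same formula that the recovery inverts. The run therefore checks the inversion and cannot show that the formula matches the authors' scoring.

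Where transcripts disagreed at a region's midpoint, coding sequence went before 3' UTR, then 5' UTR, non-coding exon and intron. Named were, per member, kind of region and library, the enriched cluster of highest -log10 p, every region past the series limits, the 3 nearest genes per member, and 4 genes of the list tied to nuclear factor I. Further clusters were named after their values were seen. The members, lists, families and alternatives were chosen with earlier results of these data known. Alternatives covered limits, overlap, centring, annotation and site definitions. Python 3.11.15, pandas 2.3.3, scipy 1.17.1, pysam 0.24.0 and bedtools 2.31.1 were used. The genes nearest in pattern to Nfia are not reported here.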

Additional observations from a re-analysis of the deposited data

How the results depend on the processing

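Of 33 alternatives, 16 left their value within its counting interval or within 1.5 times a count, 17 moved it and 0 reversed it. At limits of 5 and 4 there were 6 knockout-labelled and 13 wild-type enriched clusters, and at limits of 2 and 2 there were 20 and 85. With the same number of top clusters from each library, 2651, the knockout-labelled count stayed at 12 and the wild-type count was 13, by construction of fewer clusters. At limits of 5 and 2 no region (0) of the authors' deposited table passed, and its median log2 was 0.51 over regions with 20 or more reads and 1.19 over exonic regions. Requiring overlap of at least 50% of both clusters gave 13.7% for knockout-labelled and 23.2% for wild-type clusters, and clusters with 5 or more IP reads gave 40.4% and 52.4%. The share of 3' UTR clusters with a seed site over both libraries, 20%, became 36.0% with 6-base sites, 1.33% with 8-base sites and 36.0% with clusters extended by 20 bases. With log2 centred on regions with 20 or more reads, the summed log2 over all kinds of region was 1.06 for Nfib, against 1.46, and 0.04 for Nfix, against 0.43. Where no cause is named, the cause was not tested. No paired analysis was possible because each genotype had 1 IP library. Low read counts limit the Nfia, Nfib and Nfic sites, where no cluster with recovered reads held more than 22 IP reads.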
